A study of Mus musculus with 12 samples.

Results

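The genes described here are the ephrins and their Eph receptors, the semaphorins and their plexin receptors, and the netrins with their UNC5 receptors, followed in whole lungs of 12 neonatal mice. Members were taken by symbol, as every protein-coding gene named Eph, Efn, Sema3 to Sema7, Plxn, Ntn or Unc5 followed by a family letter or number. The rule found 59 of the 21950 protein-coding genes in 12 families, of which 57 had enough counts to be tested. They were 9 EphA and 5 EphB receptors, 5 ephrin-A and 3 ephrin-B ligands, 20 semaphorins, 9 plexins, 3 netrins and 5 Unc5 genes. One of the 5 Unc5 genes, Unc5cl, is matched by its symbol and is only UNC5C-like. Epha10 (1 to 11 counts a library) and Epha6 (0 to 3 counts a library) were the members too low to test.

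All mice were C57Bl/6J pups aged 5 postnatal days. Adm+/- pups carry 1 functional copy of the gene for adrenomedullin, a peptide that promotes vessel growth, in every cell, and WT (Adm+/+) pups carry both. The mutant allele had been backcrossed to C57Bl/6J from another strain. Pups of each genotype were injected into the peritoneum with PBS or with lipopolysaccharide (LPS), a bacterial endotoxin, from Escherichia coli O55:B5 at a daily 6 mg/kg for 3 days, a model of the lung disease of preterm infants called bronchopulmonary dysplasia. Lungs were frozen 6 h after the last dose, and each of the 4 groups held 3 libraries, 1 per mouse. Replicates bear the library numbers of the labels, and values below are listed in the order 3, 4, 5 for WT PBS, 9, 10, 11 for WT LPS, 6, 7, 8 for Adm+/- PBS and 1, 2, 12 for Adm+/- LPS. The design allows the LPS response of these genes to be read within each genotype and then compared between genotypes.

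Guidance genes were named for steering growing axons, and the same signals steer vessels, epithelium and immune cells. Ephrins are bound to the membrane and signal to Eph receptor tyrosine kinases on neighbouring cells, often in both directions at once. Semaphorins are secreted (class 3), spanning the membrane (classes 4 to 6) or tethered by a lipid anchor (class 7), and they act through plexins, which several class 3 members reach with neuropilin co-receptors. Netrins are secreted, laminin-like proteins that attract cells through DCC and neogenin and repel them through UNC5 receptors. In the lung, ephrin-B2 and EphB4 are textbook marks of arterial and venous endothelium, and UNC5B, plexin D1 and semaphorin 3G are also found on or made by vessels.

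The libraries held between 22382535 and 38062873 counted reads (median 28494877). WT PBS replicate 5 and Adm+/- PBS replicate 6 stood apart, where protein-coding genes took 77.8% and 80.1% of the counts, and 84.3% to 87.6% in each of the other 10. Adm itself, the gene deleted on 1 allele, was at 3.96, 7.09 and 4.57 CPM (counts scaled to the library's TMM-corrected depth) in WT PBS, 7.77, 8.15 and 4.46 CPM in WT LPS, 4.58, 2.87 and 3.62 CPM in Adm+/- PBS and 3.74, 6.28 and 3.92 CPM in Adm+/- LPS, so the genotypes overlapped within each treatment. Markers of the lung's own cells were present, with summed lung epithelial markers at 13380 to 17020 CPM in every library. Summed markers of skeletal muscle, which is not lung tissue, were at 2631 to 5934 CPM in WT LPS against 191 to 747 CPM in the other 9 libraries. Squamous epithelial markers, also foreign to lung, summed to 3533 and 1807 CPM in WT LPS replicates 9 and 11, 34.6 CPM in replicate 10, and 3.93 to 49.2 CPM elsewhere.

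Levels were compared between genes as CPM per kb of exon, averaged over the 12 libraries. The highest members were Ephb4, the venous receptor for ephrin-B2, at 72.3 CPM per kb, Sema7a at 62.9, and the receptors Plxnb2 and Plxnd1 at 62.1 and 60.1 CPM per kb. Efnb2, the arterial ligand, followed at 43.6 CPM per kb and Efna1, the ligand of EphA2, at 41.5 CPM per kb. By this pooled mean the leading members of the other families were Epha2 (19.6), Sema3g (37.6), Sema4c (28), Sema5a (9.15), Sema6a (17.6), Ntn1 (19.8) and Unc5b (19.1 CPM per kb). At the low end of the tested members, Epha5 averaged 0.124 CPM per kb. Sema7a went from 28.5 and 21.4 CPM per kb in the WT and Adm+/- PBS groups to 77 and 125 CPM per kb in the LPS groups, where it lay above Ephb4 (59.5 and 65.3). The order of close members changed with treatment. Plxnd1 lay above Plxnb2 in both PBS groups (66.9 and 65.8 against 59.9 and 54.5 CPM per kb) and below it in both LPS groups (45.2 and 62.5 against 59.6 and 74.5). Sema3f led class 3 in both LPS groups (34.5 and 39 against 27.1 and 32.8 for Sema3g), and Sema6d led class 6 in Adm+/- LPS lungs (15.4 against 13.8 for Sema6a). These are orders of group means and were not tested. Single libraries went against them, WT LPS replicate 11 for Sema7a and Ephb4, WT PBS replicate 4 for the plexins and Adm+/- LPS replicate 1 for class 6.

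**Figure D1:**
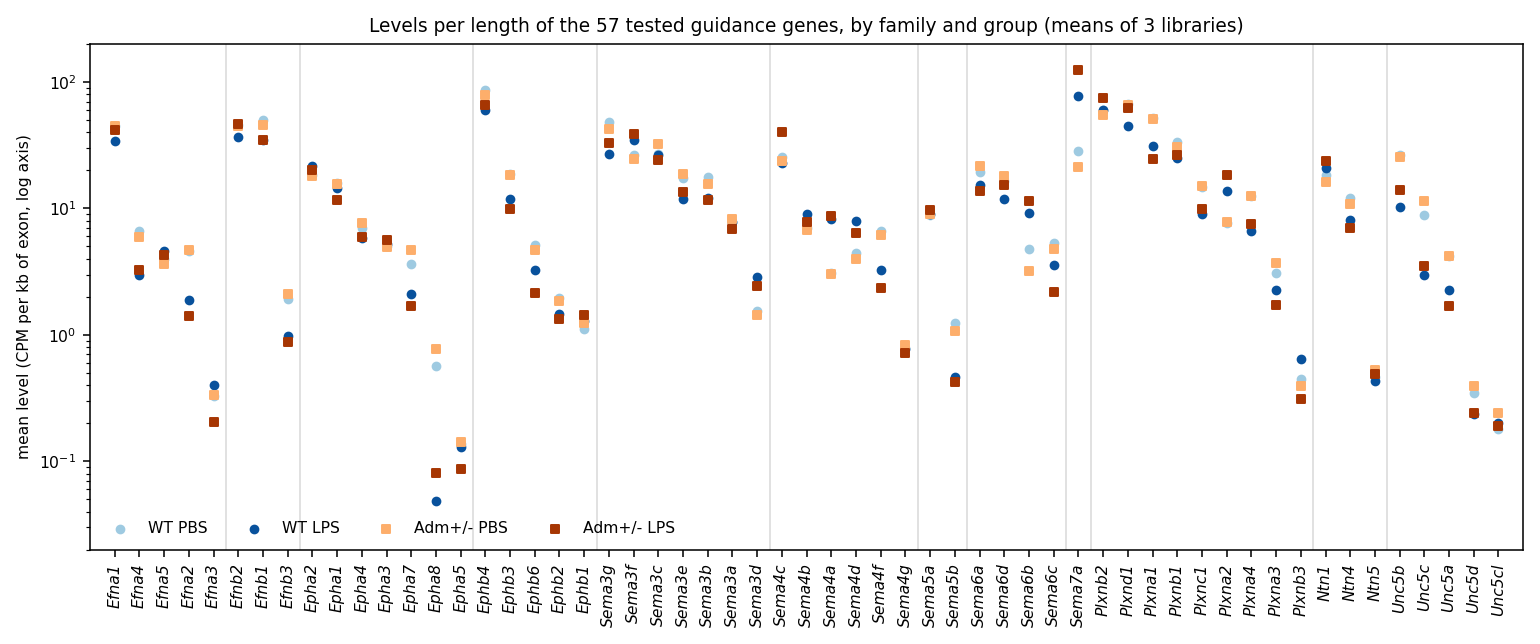
Mean level of each tested member in CPM per kb of exon (log axis) in the 4 groups, 1 symbol per group mean of 3 libraries, with families separated by grey lines. Ephb4, Plxnb2, Plxnd1 and Sema7a lie at the top, Epha8 shows the widest gap between PBS and LPS groups, and Sema7a rises from 28.5 to 77 CPM per kb in WT and from 21.4 to 125 CPM per kb in Adm+/- lungs.

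LPS lowered more guidance genes than it raised, in both genotypes. A gene was called when edgeR's adjusted p over all 15885 tested genes was below 0.05 and its absolute log2 fold change was above 0.5. In WT lungs 19 of the 57 tested members (33.3%) fell, against 7.09% of all tested genes, and 6 members (10.5%) rose, against 10.5% of all tested genes. In Adm+/- lungs 19 members (33.3%) fell, against 12.2% of all tested genes, and 9 (15.8%) rose, against 12.8%. The median log2 fold change of the members was -0.39 in WT and -0.38 in Adm+/- lungs, where the medians of all tested genes were 0.01 and -0.01. Of the members, 16 fell in both genotypes, against 5.85% of all tested genes, and 6 rose in both, against 7.23%. No member rose in one genotype and fell in the other, 3 fell in WT alone by these calls, 3 fell and 3 rose in Adm+/- alone, and 26 were called in neither. Of all 15885 tested genes, 1127 fell in WT, 1933 in Adm+/- and 929 in both, and 1664, 2035 and 1148 rose. Calls in Adm+/- alone were thus common among all tested genes too. In libraries of whole lung, fewer cells of a type and less RNA per cell cannot be told apart.

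**Figure D2:**
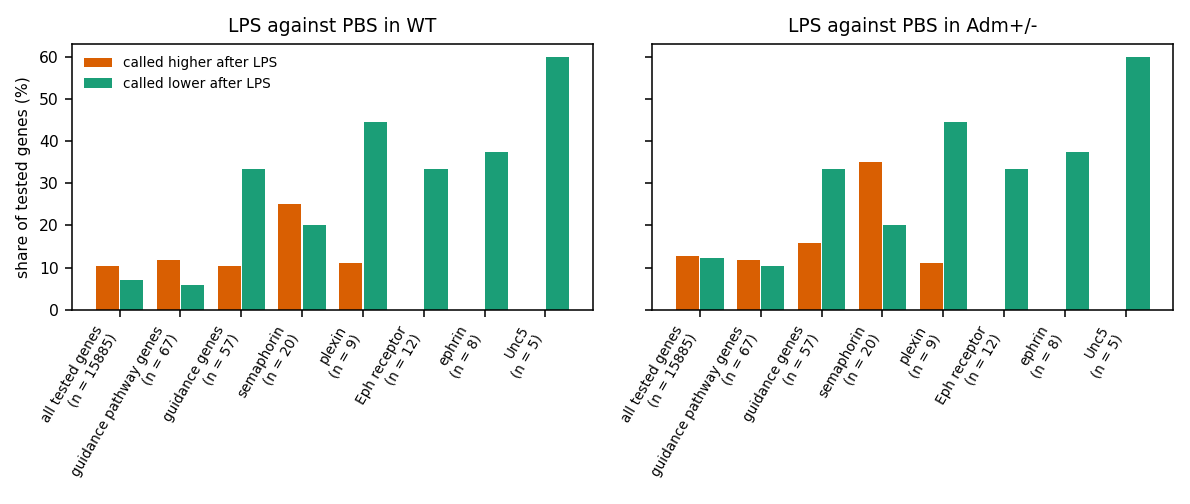
Share of tested genes called higher (orange) or lower (green) after LPS, in percent, for WT (left) and Adm+/- lungs (right), with all tested genes, the 67 tested genes of the wider guidance pathway and the guidance families side by side. Bars start at 0. The 57 guidance genes have 33.3% called lower in each genotype, and in the families drawn the rises are those of semaphorins and 1 plexin.

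The called rises were semaphorins, 1 plexin and 1 netrin. Of 20 semaphorins, 5 rose and 4 fell in WT lungs and 7 rose and 4 fell in Adm+/- lungs. Among the 12 tested Eph receptors 4 fell and none rose in either genotype, and among 8 ephrins 3 fell and none rose. Of 9 plexins, 4 fell and 1 rose in each genotype. The Unc5 receptors had the highest share of falls, 3 of 5 genes in each genotype, and the netrins split, with Ntn4 lower in both and Ntn1 higher in Adm+/- lungs. In fits that left out a library in turn, 10 of the 19 WT falls and 1 of the 6 WT rises were lost at least once, as were 1 of the 19 Adm+/- falls and 3 of the 9 Adm+/- rises. Without WT LPS replicate 9 the WT calls of Efna2, Ephb3, Ntn4, Plxna1, Plxnd1, Sema3e, Sema3g, Sema4f, Unc5a and Sema6b were lost. Without WT PBS replicate 5 those of Efna2, Ephb3, Ephb6, Ntn4, Plxna1, Plxnd1 and Sema4f were lost, and without WT LPS replicate 10 those of Efna2, Ephb3, Plxna1, Plxnd1, Sema4f and Sema6b. Plxnd1 was also lost without WT LPS replicate 11, and Plxnd1 and Ephb3 without Adm+/- LPS replicate 12. The 26 members called in neither genotype lay between -0.56 (Sema3b) and 0.52 (Plxnb3) in WT and between -0.72 (Epha5 and Unc5d) and 0.45 (Plxnb2) in Adm+/- lungs on the log2 scale, and among them were Efna3, Efna5, Efnb1, Ephb1, Ephb2, Sema4b, Sema4g and Ntn5. Of these 26, Efna1, Efnb2 and Sema6d in WT and Epha4, Ephb2, Plxnb2 and Sema3c in Adm+/- lungs had an adjusted p below 0.05 with a fold change under the limit.

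**Figure D3:**
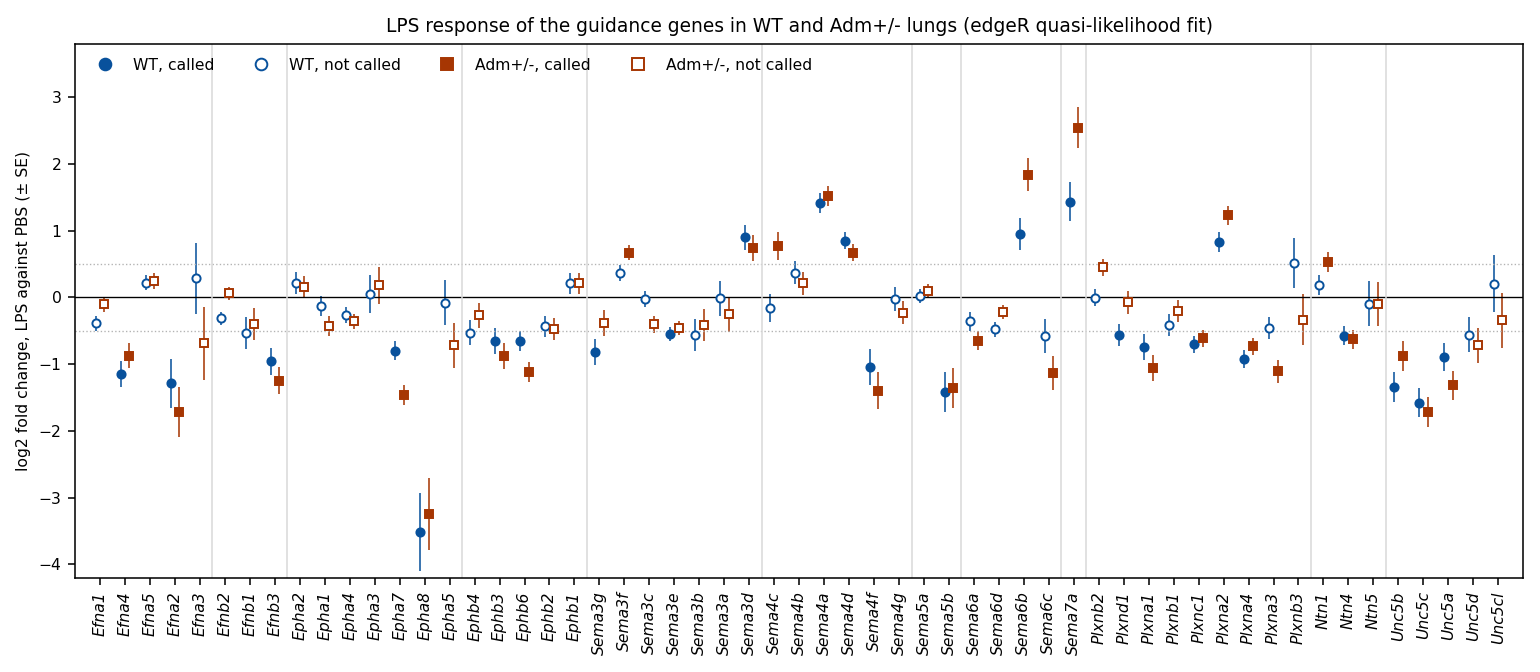
Log2 fold change of LPS against PBS for each tested member (points, with bars of 1 SE from the edgeR fit) in WT (blue circles) and Adm+/- lungs (red squares), filled where called, with dotted lines at 0.5 and -0.5. Epha8 lies lowest at -3.51 and -3.25, Sema7a highest at 1.43 and 2.55, and the genotypes share their direction for every member called in both.

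Among the semaphorins, the largest rise was that of Sema7a (ENSMUSG00000038264, chr9:57940112-57962865 on the plus strand, mm10), the lipid-anchored ligand of plexin C1 and beta 1 integrins. Sema7a measured 66.8, 126 and 89.8 CPM in WT PBS, 353, 261 and 148 CPM in WT LPS, 85.8, 59.8 and 65.8 CPM in Adm+/- PBS and 427, 408 and 399 CPM in Adm+/- LPS lungs. Each LPS library lay above each PBS library, although the WT LPS libraries spread from 148 to 353 CPM while those of Adm+/- LPS lay within 399 to 427 CPM. Its log2 fold change was 1.43 ± 0.29 (SE, adjusted p = 0.00635) in WT and 2.55 ± 0.30 (SE, adjusted p = 0.00017) in Adm+/- lungs, a 2.7-fold and a 5.84-fold rise. The difference between these responses, 1.11 (95% interval 0.22 to 2.0), had an adjusted p of 0.491. Its receptor Plxnc1 went the other way, from 124 ± 8.47 to 76 ± 12.1 CPM (SD, n = 3) in WT and from 125 ± 6.37 to 82.1 ± 9.94 CPM in Adm+/- lungs, with log2 fold changes of -0.70 ± 0.13 (SE, adjusted p = 0.00378) and -0.61 ± 0.13 (SE, adjusted p = 0.00452).

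Both Sema4a and Sema4d, membrane semaphorins that also act between immune cells, rose in each genotype. Sema4a measured 15.5, 19.1 and 15.4 CPM in WT PBS, 52.6, 39 and 41.8 CPM in WT LPS, 19, 15.7 and 14.2 CPM in Adm+/- PBS and 46.1, 43.9 and 50.2 CPM in Adm+/- LPS lungs. The LPS libraries were all above those treated with PBS, and Sema4a rose 2.67-fold in WT (log2 1.42 ± 0.15 SE, adjusted p = 0.00019) and 2.88-fold in Adm+/- lungs (log2 1.52 ± 0.15 SE, adjusted p = 7.9e-05). Sema4d measured 33.1, 35 and 33.5 CPM in WT PBS, 71.4, 47.7 and 64.3 CPM in WT LPS, 30.6, 30.9 and 30.6 CPM in Adm+/- PBS and 45.4, 50.3 and 51 CPM in Adm+/- LPS lungs. Again no LPS library reached down to the PBS range, and the log2 fold changes of Sema4d were 0.85 ± 0.13 (SE, adjusted p = 0.00146) and 0.67 ± 0.13 (SE, adjusted p = 0.0029). Plxnb1, the receptor of Sema4D, was not called, at -0.41 (adjusted p = 0.103) and -0.20 (adjusted p = 0.387). Summed myeloid markers moved with these rises, from 232 to 347 CPM in WT PBS to 1436 to 2553 CPM in WT LPS and from 204 to 236 CPM to 1447 to 1757 CPM in Adm+/- lungs, with 12 of 13 markers called higher in each genotype, and their part in the rises was not tested.

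Semaphorin 6B is a membrane ligand of the class A plexins, and plexin A2 is a receptor for class 6 semaphorins. Sema6b measured 12.2, 22.6 and 21.7 CPM in WT PBS, 41.5, 40.1 and 27.3 CPM in WT LPS, 16.3, 10.8 and 11.1 CPM in Adm+/- PBS and 45.6, 42.8 and 48.3 CPM in Adm+/- LPS lungs. PBS and LPS libraries did not overlap, and Sema6b rose 1.94-fold in WT (log2 0.95 ± 0.24 SE, adjusted p = 0.0186) and 3.58-fold in Adm+/- lungs (log2 1.84 ± 0.25 SE, adjusted p = 0.00033). Without WT LPS replicate 9 the WT value was 0.84 (adjusted p = 0.0839), and without replicate 10 it was 0.87 (adjusted p = 0.0504). Plxna2 measured 134, 150.5 and 113 CPM in WT PBS, 253, 251 and 204 CPM in WT LPS, 116, 124 and 160.1 CPM in Adm+/- PBS and 315, 331 and 293 CPM in Adm+/- LPS lungs. Plxna2 separated by treatment in both genotypes, with log2 fold changes of 0.83 ± 0.15 (SE, adjusted p = 0.00293) and 1.23 ± 0.15 (SE, adjusted p = 0.00017), and it was the sole plexin that rose.

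Secreted class 3 semaphorins did not move together. Sema3d measured 16.3, 13.8 and 9.64 CPM in WT PBS, 26.8, 24.1 and 23.5 CPM in WT LPS, 9.63, 14.2 and 13.4 CPM in Adm+/- PBS and 19.8, 21.7 and 20.9 CPM in Adm+/- LPS lungs. The LPS libraries lay above the PBS libraries, with log2 fold changes of 0.90 ± 0.19 (SE, adjusted p = 0.00759) and 0.74 ± 0.19 (SE, adjusted p = 0.0126), the second being 0.58 (adjusted p = 0.0546) without Adm+/- PBS replicate 6. Sema3f, a ligand of neuropilin 2, rose in Adm+/- lungs from 127 ± 9.67 to 202 ± 20.4 CPM (log2 0.67 ± 0.12 SE, adjusted p = 0.00148), and in WT lungs its log2 fold change of 0.37 ± 0.12 (SE, adjusted p = 0.0436) was under the 0.5 limit. Sema3g, made largely by endothelium, fell in WT lungs from 217 ± 63.6 to 123 ± 14.1 CPM (log2 -0.82 ± 0.20 SE, adjusted p = 0.014) and was at -0.38 ± 0.20 (SE, adjusted p = 0.164) in Adm+/- lungs. Sema3e, which binds plexin D1 without a neuropilin, fell in WT lungs from 163 ± 5.84 to 111 ± 11.2 CPM (log2 -0.55 ± 0.11 SE, adjusted p = 0.0049) and went from 173 ± 7.52 to 126 ± 14.6 CPM in Adm+/- lungs, where -0.46 ± 0.11 (SE, adjusted p = 0.00736) was also under the limit. Without WT LPS replicate 9 the WT values of Sema3g and Sema3e, -0.76 (adjusted p = 0.0668) and -0.48 (adjusted p = 0.0244), were no longer called. Neither Sema3a, Sema3b nor Sema3c was called in either genotype.

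Sema4c, a membrane ligand of plexin B2, rose in Adm+/- lungs. Sema4c measured 87.6, 109.6 and 155 CPM in WT PBS, 126, 102 and 87.7 CPM in WT LPS, 130.1, 93.6 and 100.4 CPM in Adm+/- PBS and 192, 189.9 and 171 CPM in Adm+/- LPS lungs. All 3 Adm+/- LPS libraries lay above the other 9 libraries, while WT PBS and WT LPS overlapped. Its log2 fold change was 0.77 ± 0.20 (SE, adjusted p = 0.0149) in Adm+/- and -0.16 ± 0.20 (SE, adjusted p = 0.601) in WT lungs, the latter 0.09 (adjusted p = 0.681) with WT PBS replicate 5 and Adm+/- PBS replicate 6 left out. The Adm+/- call was lost without Adm+/- PBS replicate 7 (0.68, adjusted p = 0.0596) or replicate 8 (0.72, adjusted p = 0.0558). The difference between responses, 0.93 ± 0.29 (SE, adjusted p = 0.408), did not pass the threshold. Plxnb2 was at -0.01 ± 0.13 (SE, adjusted p = 0.976) in WT and 0.45 ± 0.13 (SE, adjusted p = 0.0206) in Adm+/- lungs, both under the 0.5 limit. An exon of D430040D24Rik lies on the other strand of Sema4c, and whether counting used the strand is not given in the sources used here.

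Promoters are shown for 6 of the 7 semaphorins that rose in either genotype, because these genes rose after LPS, and Sema3f had no entry. Sequences are the 250 bases before a RefSeq start (GRCm38.p6, the build of mm10) and were found for 51 of the 59 members. Each was searched on both strands for the NF-kappa B motif, the AP-1 motif TGANTCA and the STAT motif TTCNNNGAA, none of which overlapped another here. AP-1 letters occurred before a start of 3 of the 7 members that rose in either genotype and had a promoter (42.9%), Sema4c, Sema4d and Sema6b, against 7.82% of all 27025 genes. NF-kappa B letters occurred in 2 of these 7, Sema4a and Sema4c (28.6%, against 8.23% of all genes), and STAT letters in 0 of 7 (8.13% of all genes). Of the 18 members with a promoter that fell in either genotype, 1 held an NF-kappa B match (5.56%) and 0 held the other motifs. Where a gene had several starts and 1 held a match, that one is printed. Genes with several starts had more chances to match, and a match describes letters, not a site in use. In the lines below, capitals mark the matched motif, and each sequence runs 5′ to 3′ on the strand of its gene.
Sema4c, chr1:36558382-36558631, minus strand, NF-kappa B 186 and AP-1 22 bases before one of its starts: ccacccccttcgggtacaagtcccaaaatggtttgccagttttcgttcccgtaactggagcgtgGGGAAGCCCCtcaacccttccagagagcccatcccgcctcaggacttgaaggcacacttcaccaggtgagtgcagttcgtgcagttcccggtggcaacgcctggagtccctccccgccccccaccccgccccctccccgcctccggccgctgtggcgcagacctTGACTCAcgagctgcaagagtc
Sema6b, chr17:56133853-56134102, minus strand, AP-1 48 bases before an internal start: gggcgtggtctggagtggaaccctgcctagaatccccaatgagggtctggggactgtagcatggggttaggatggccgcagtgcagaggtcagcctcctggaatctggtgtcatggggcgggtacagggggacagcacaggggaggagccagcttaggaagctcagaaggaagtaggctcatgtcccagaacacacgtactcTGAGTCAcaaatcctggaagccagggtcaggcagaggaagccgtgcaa
Sema4a, chr3:88459102-88459351, minus strand, NF-kappa B 173 bases before one of its starts: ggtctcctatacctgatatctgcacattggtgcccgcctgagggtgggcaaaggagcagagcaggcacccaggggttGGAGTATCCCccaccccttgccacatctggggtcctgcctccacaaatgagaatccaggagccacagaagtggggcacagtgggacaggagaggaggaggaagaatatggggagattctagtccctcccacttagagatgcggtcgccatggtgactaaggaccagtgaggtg
Sema4d, chr13:51748811-51749060, minus strand, AP-1 239 bases before one of its starts: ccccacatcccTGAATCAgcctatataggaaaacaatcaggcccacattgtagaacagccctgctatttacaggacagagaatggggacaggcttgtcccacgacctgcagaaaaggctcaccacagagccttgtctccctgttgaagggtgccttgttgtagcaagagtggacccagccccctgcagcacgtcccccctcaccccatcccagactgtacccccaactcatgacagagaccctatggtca
Sema7a, chr9:57939862-57940111, plus strand, no match: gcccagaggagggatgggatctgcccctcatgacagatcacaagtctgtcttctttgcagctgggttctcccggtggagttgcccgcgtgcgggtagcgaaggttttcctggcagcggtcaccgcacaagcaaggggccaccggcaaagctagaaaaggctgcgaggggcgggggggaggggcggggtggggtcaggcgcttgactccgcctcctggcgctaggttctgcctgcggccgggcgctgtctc
Sema3d, chr5:12382916-12383165, plus strand, no match: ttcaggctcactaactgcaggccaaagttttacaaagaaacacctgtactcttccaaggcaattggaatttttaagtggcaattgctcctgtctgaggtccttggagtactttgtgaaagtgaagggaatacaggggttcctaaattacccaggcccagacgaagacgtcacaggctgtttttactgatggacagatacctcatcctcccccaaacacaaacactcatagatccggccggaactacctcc

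The semaphorins that fell in both genotypes were Sema5b and Sema4f, both transmembrane ligands known best from the nervous system. Sema5b measured 6.8, 6.94 and 12.5 CPM in WT PBS, 2.31, 3.74 and 3.82 CPM in WT LPS, 9.26, 6.12 and 7.59 CPM in Adm+/- PBS and 2.73, 3.81 and 2.42 CPM in Adm+/- LPS lungs. Sema4f measured 33.8, 25.9 and 46.4 CPM in WT PBS, 11.6, 15.5 and 24.2 CPM in WT LPS, 37.7, 28.6 and 31.5 CPM in Adm+/- PBS and 14.3, 10.8 and 12 CPM in Adm+/- LPS lungs. LPS libraries lay below PBS libraries for both genes, and the WT PBS group was widest, with replicate 5 highest in each case. Sema5b had log2 fold changes of -1.41 ± 0.30 (SE, adjusted p = 0.00765) and -1.35 ± 0.30 (SE, adjusted p = 0.00581). Those of Sema4f were -1.05 ± 0.27 (SE, adjusted p = 0.0188) and -1.40 ± 0.27 (SE, adjusted p = 0.00282), the first being -0.81 (adjusted p = 0.0559) without WT PBS replicate 5. Sema6a and Sema6c, further ligands of class A plexins, fell in Adm+/- lungs alone by the calls, at -0.65 ± 0.15 (SE, adjusted p = 0.00673) and -1.13 ± 0.26 (SE, adjusted p = 0.00641), with WT values of -0.36 ± 0.15 (SE, adjusted p = 0.0998) and -0.58 ± 0.25 (SE, adjusted p = 0.12). Sema5a, the higher class 5 member, was not called, at 0.02 and 0.10.

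The plexins that fell in both genotypes were Plxna1, Plxna4 and Plxnc1. Plxna1, a neuropilin partner, went from 467 ± 107 to 279.9 ± 70 CPM in WT and from 464 ± 63 to 223 ± 3.11 CPM in Adm+/- lungs (SD, n = 3), log2 -0.74 ± 0.19 (SE, adjusted p = 0.0196) and -1.05 ± 0.19 (SE, adjusted p = 0.00194). Its WT call was lost without WT LPS replicate 9 (-0.59, adjusted p = 0.0832). Plxna4 went from 177 ± 24.8 to 93.3 ± 9.71 CPM and from 178 ± 19 to 107 ± 9.78 CPM, log2 -0.92 ± 0.13 (SE, adjusted p = 0.00091) and -0.73 ± 0.13 (SE, adjusted p = 0.00162). Plxna3 fell in Adm+/- lungs (-1.11 ± 0.17 SE, adjusted p = 0.0006) and was at -0.46 ± 0.17 (SE, adjusted p = 0.0697) in WT lungs. Plxnd1, the vessel-guiding receptor of semaphorin 3E, fell in WT lungs from 489 ± 130.0 to 330.0 ± 21.2 CPM (-0.57 ± 0.17 SE, adjusted p = 0.0337) and stood at 480.5 ± 76.8 and 456 ± 10.7 CPM in Adm+/- lungs (-0.07 ± 0.17 SE, adjusted p = 0.771). The WT fall of Plxnd1 was no longer called in 5 of 12 fits that left out a library, among them that without WT PBS replicate 5 (-0.33, adjusted p = 0.0717). Plexins summed to 250 ± 50.3 CPM per kb in WT PBS, 193 ± 9 in WT LPS, 242 ± 29 in Adm+/- PBS and 226 ± 4.51 in Adm+/- LPS lungs. Exons of Plxna1 and Plxna4 are overlapped by Gm26811 and Plxna4os3 on the other strand, and those of Plxnc1 by Gm48718 on the same strand.

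**Figure D4:**
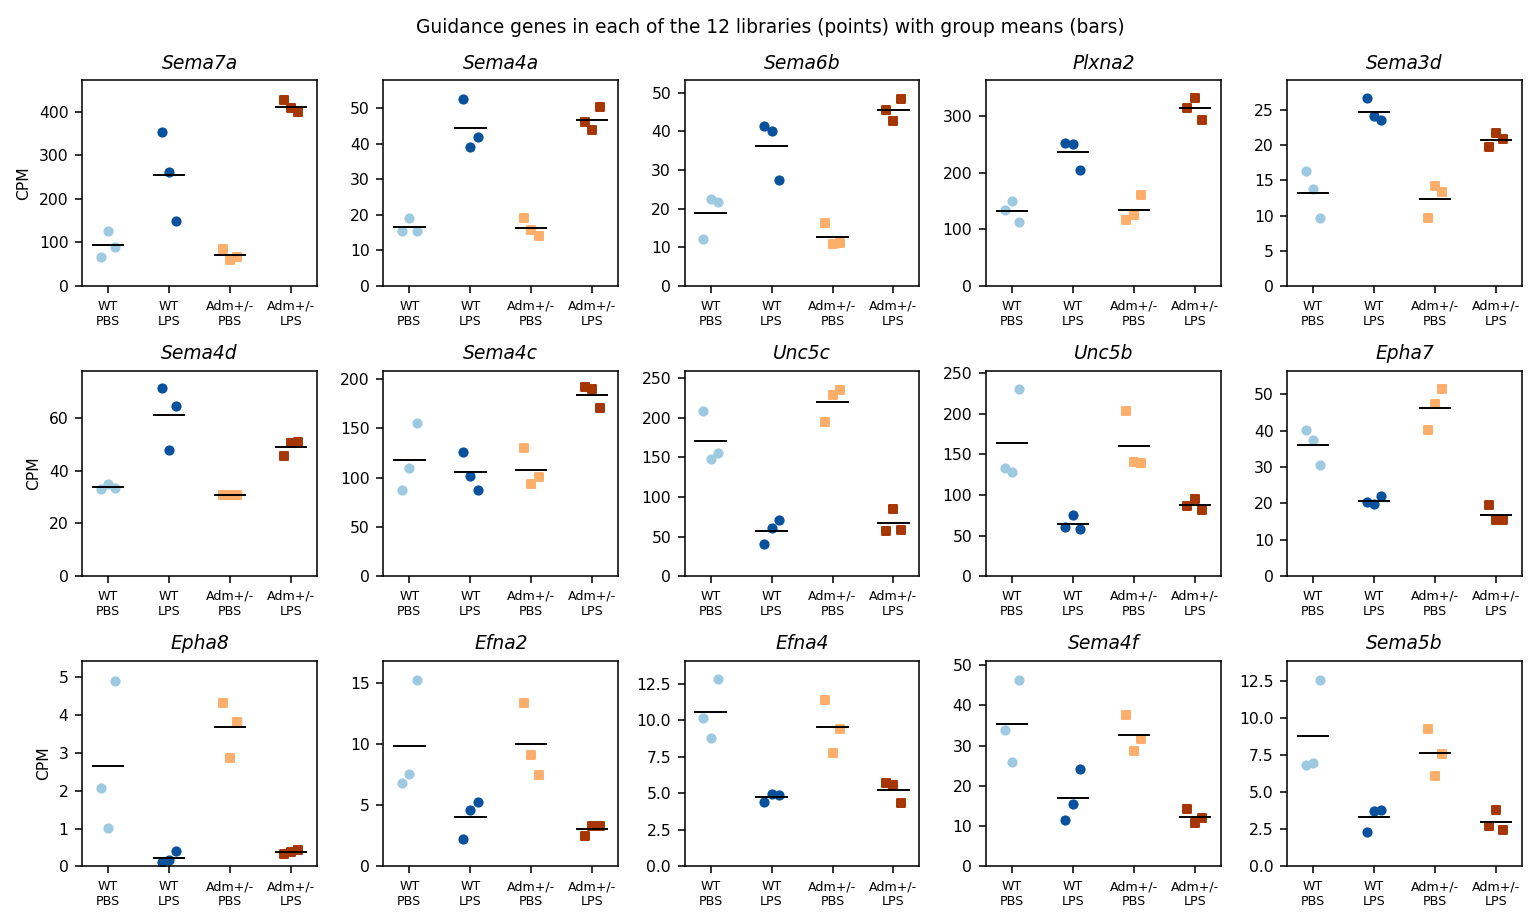
CPM of 15 members in each of the 12 libraries (points, linear axes from 0) with group means (bars). The first 6 panels show genes called higher in both genotypes, Sema4c is called in Adm+/- lungs alone with its 3 LPS libraries at 171 to 192 CPM, and the 8 remaining panels show genes called lower in both.

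Netrin receptors of the UNC5 group fell in both genotypes. Unc5c measured 208, 148 and 155 CPM in WT PBS, 40.4, 60.9 and 70.3 CPM in WT LPS, 194, 228 and 235 CPM in Adm+/- PBS and 57.1, 84.2 and 58.4 CPM in Adm+/- LPS lungs. No library overlapped between treatments, and Unc5c (ENSMUSG00000059921, chr3:141465216-141834924 on the plus strand) fell 2.99-fold in WT (log2 -1.58 ± 0.22 SE, adjusted p = 0.00086) and 3.29-fold in Adm+/- lungs (log2 -1.72 ± 0.22 SE, adjusted p = 0.00025). Unc5b measured 133, 128 and 230.4 CPM in WT PBS, 60.1, 75.9 and 58 CPM in WT LPS, 203, 140.2 and 139 CPM in Adm+/- PBS and 86.7, 94.9 and 81.4 CPM in Adm+/- LPS lungs. Unc5b, the endothelial member, was higher in every PBS library than in any LPS library, with log2 fold changes of -1.34 ± 0.23 (SE, adjusted p = 0.00249) and -0.88 ± 0.23 (SE, adjusted p = 0.013), and the Adm+/- value was -0.68 (adjusted p = 0.0516) without replicate 6, the PBS library that stood apart, and -0.83 (adjusted p = 0.053) without LPS replicate 12. Unc5a went from 17.5 ± 2.9 to 9.44 ± 2.33 CPM in WT (-0.89 ± 0.21 SE, adjusted p = 0.0135) and from 17.6 ± 3.41 to 7.05 ± 1.09 CPM in Adm+/- lungs (-1.32 ± 0.22 SE, adjusted p = 0.001). Its WT call was lost without WT LPS replicate 9 (-0.85, adjusted p = 0.0591). Unc5d and Unc5cl were not called. Summed over the 5 genes, Unc5 levels went from 39.9 ± 9.55 to 16 ± 1.66 CPM per kb in WT and from 42 ± 5.55 to 19.6 ± 2.07 CPM per kb in Adm+/- lungs. On the other strand, exons of Unc5a overlap Hk3 and those of Unc5c overlap Gm15688.

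The netrins themselves split. Ntn1, the classical netrin, rose in Adm+/- lungs from 102 ± 10.5 to 148 ± 6.21 CPM (0.53 ± 0.15 SE, adjusted p = 0.0233) and went from 116 ± 22.9 to 131 ± 22.3 CPM in WT lungs (0.19 ± 0.15 SE, adjusted p = 0.407). That rise was close to the limit, and it was not called in 5 of 12 fits that left out a library, those without Adm+/- PBS replicate 7 or 8 or any Adm+/- LPS replicate, with values from 0.47 to 0.61 over the 12. Ntn4, which binds laminin in basement membranes, fell in both, at -0.57 ± 0.14 (SE, adjusted p = 0.0163) in WT and -0.63 ± 0.14 (SE, adjusted p = 0.00663) in Adm+/- lungs, and its WT value was -0.47 (adjusted p = 0.0417) without WT PBS replicate 5. Neo1, the neogenin receptor shared by netrins, was not called, at -0.17 (adjusted p = 0.227) and 0.06 (adjusted p = 0.685).

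Epha8, an ephrin-A receptor known from the brain, had the largest fold change of all members and few reads. Epha8 measured 2.06, 1.02 and 4.88 CPM in WT PBS, 0.123, 0.166 and 0.398 CPM in WT LPS, 4.31, 2.87 and 3.82 CPM in Adm+/- PBS and 0.337, 0.377 and 0.428 CPM in Adm+/- LPS lungs. It was counted 21 to 96 times in each PBS library and 4 to 12 times in each LPS library, with no overlap. The log2 fold changes were -3.51 ± 0.58 (SE, adjusted p = 0.00218) and -3.25 ± 0.54 (SE, adjusted p = 0.00109), and the WT estimate moved between -4.15 and -2.77 as single libraries were left out. Epha7, a second ephrin-A receptor, was better covered. Epha7 measured 40.2, 37.6 and 30.6 CPM in WT PBS, 20.4, 19.9 and 22 CPM in WT LPS, 40.1, 47.5 and 51.6 CPM in Adm+/- PBS and 19.6, 15.3 and 15.6 CPM in Adm+/- LPS lungs. All LPS libraries lay below all PBS libraries, and Epha7 fell by 0.80 ± 0.14 (SE, adjusted p = 0.00326) on the log2 scale in WT and by 1.46 ± 0.14 (SE, adjusted p = 7.7e-05) in Adm+/- lungs. The highest EphA receptor per kb, Epha2, was not called, at 86.6 ± 21.3 and 101 ± 12.7 CPM in WT and 85 ± 11.7 and 94.3 ± 4.99 CPM in Adm+/- lungs. Epha1, Epha3, Epha4 and Epha5 were not called either.

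Of the EphB receptors, Ephb3 and the kinase-inactive Ephb6 fell in both genotypes. The log2 fold changes of Ephb6 were -0.65 ± 0.15 (SE, adjusted p = 0.0107) and -1.12 ± 0.15 (SE, adjusted p = 0.00032), and its WT value was -0.49 (adjusted p = 0.0231) without WT PBS replicate 5, under the fold limit. Those of Ephb3 were -0.66 ± 0.20 (SE, adjusted p = 0.0345) and -0.88 ± 0.20 (SE, adjusted p = 0.00586). The WT libraries of Ephb3 overlapped between treatments, and its WT call was lost in 4 of 12 fits that left out a library, the weakest value being -0.39. Ephb4, the highest EphB receptor per kb in all 4 groups, had 399 ± 119 and 276 ± 14.3 CPM in WT PBS and LPS and 364 ± 73.5 and 303 ± 11 CPM in Adm+/- PBS and LPS lungs, and was not called, at log2 -0.53 ± 0.19 (SE, adjusted p = 0.0645) and -0.27 ± 0.19 (SE, adjusted p = 0.313). Its ligand Efnb2 was at 314 ± 23.2 and 253 ± 17.2 CPM in WT and 306 ± 10.3 and 320.3 ± 30.4 CPM in Adm+/- lungs. The Efnb2 fold changes of -0.31 ± 0.10 (SE, adjusted p = 0.0426) and 0.07 ± 0.10 (SE, adjusted p = 0.651) were under the limit. Neither gene of this artery and vein pair was called in either genotype.

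Ephrins that fell were Efna2, Efna4 and Efnb3. Efna2 measured 6.83, 7.52 and 15.2 CPM in WT PBS, 2.28, 4.57 and 5.26 CPM in WT LPS, 13.4, 9.09 and 7.43 CPM in Adm+/- PBS and 2.51, 3.27 and 3.31 CPM in Adm+/- LPS lungs. WT PBS replicate 5 and Adm+/- PBS replicate 6 were the highest libraries of their groups, and the log2 fold changes were -1.28 ± 0.37 (SE, adjusted p = 0.0303) and -1.71 ± 0.38 (SE, adjusted p = 0.0055). Without WT PBS replicate 5 the WT value of Efna2 was -0.84 (adjusted p = 0.0991). Efna4 measured 10.2, 8.79 and 12.8 CPM in WT PBS, 4.41, 4.99 and 4.9 CPM in WT LPS, 11.4, 7.77 and 9.42 CPM in Adm+/- PBS and 5.68, 5.57 and 4.35 CPM in Adm+/- LPS lungs. The same libraries were highest, LPS and PBS did not overlap, and Efna4 had log2 fold changes of -1.15 ± 0.19 (SE, adjusted p = 0.00229) and -0.87 ± 0.19 (SE, adjusted p = 0.00565) that were called in every fit that left out a library. Its exons overlap 4731419I09Rik on the other strand. Efnb3, a ligand of EphB receptors, fell by 0.96 ± 0.20 (SE, adjusted p = 0.00741) on the log2 scale in WT and by 1.25 ± 0.20 (SE, adjusted p = 0.00095) in Adm+/- lungs. Efna1, the highest ephrin-A per kb and the main ligand of EphA2, was at 82 ± 9.07 and 62.7 ± 1.63 CPM in WT and 82.4 ± 11.8 and 76.9 ± 1.81 CPM in Adm+/- lungs, with log2 fold changes under the limit, -0.39 ± 0.11 (SE, adjusted p = 0.0327) and -0.10 ± 0.11 (SE, adjusted p = 0.544).

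Markers of other cells were read in the same libraries, and their lists did not all move with treatment. Summed endothelial markers were at 5299 to 5737 CPM in WT PBS and 4592 to 4651 CPM in WT LPS (4 of 19 lower, 0 higher), and at 5378 to 5620 CPM and 4841 to 5370 CPM in Adm+/- lungs (5 lower, 1 higher). Summed fibroblast markers were lower in every LPS library than in any PBS library, at 17250, 17970 and 45660 CPM in WT PBS, 12050 to 16560 CPM in WT LPS, 16660, 17730 and 29880 CPM in Adm+/- PBS and 12820 to 14810 CPM in Adm+/- LPS lungs. This sum is mostly collagen, with Col1a1, Col1a2 and Col3a1 at 10140, 6631 and 7332 CPM in WT PBS and 4694, 3195 and 4155 CPM in WT LPS. Smaller markers went both ways in WT lungs, Wnt2 and Meox2 being lower after LPS and Dcn, Lum and Inmt higher. WT PBS replicate 5 and Adm+/- PBS replicate 6 held the highest sums, 2 of 13 fibroblast markers were called lower and 3 higher in WT and 3 lower and 1 higher in Adm+/- lungs, and their median log2 fold changes were -0.32 and -0.35. Nerve and Schwann cell markers, relevant to members known from neurons, were at 58.8 to 122 CPM in WT PBS, 47.7 to 99.9 CPM in WT LPS, 55.3 to 64 CPM in Adm+/- PBS and 50.3 to 54.2 CPM in Adm+/- LPS lungs. Their WT ranges overlapped between treatments. Of these 10 markers, 1 was called higher and 1 lower in WT, and 2 higher and 1 lower in Adm+/- lungs. With WT PBS replicate 5 and Adm+/- PBS replicate 6 both left out, 14 of 58 tested members (24.1%) fell in WT lungs against 5.41% of all tested genes, and 19 (32.8%) fell in Adm+/- lungs against 11.6%. Without WT LPS replicate 9, the library with the most squamous markers, 10 of 58 members (17.2%) fell in WT lungs against 2.75%. The share of falls among guidance genes stayed above that of all tested genes in each of these fits, with fewer members called in WT. Skeletal muscle markers were high in every WT LPS library (2631 to 5934 CPM) and squamous markers in replicates 9 and 11. Neither was high in Adm+/- LPS libraries. Without replicate 9, muscle markers remained in replicates 10 and 11 and squamous markers at 1807 CPM in replicate 11. Leaving out that library therefore cannot show the part of foreign tissue. The part of any of these markers in the fold changes was not tested.

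The response to LPS was then compared between genotypes. No member was called for the difference between the WT and Adm+/- responses by edgeR, DESeq2 or limma-voom, where 0.145% of all tested genes were called. An unadjusted p below 0.05 by edgeR was held by 8 members (14%) and by 7.85% of all tested genes. The smallest p values belonged to Epha7 (-0.66 ± 0.20 SE, adjusted p = 0.402), Sema4c (0.93 ± 0.29 SE, adjusted p = 0.408) and Plxna3 (-0.65 ± 0.23 SE, adjusted p = 0.474). The intervals leave room for sizeable differences, for Epha7 from -1.10 to -0.22 and for Sema4c from 0.30 to 1.56 on the log2 scale (95%). Members called in 1 genotype alone, such as Sema3g, Plxnd1, Sema3f and Sema6a, are therefore not shown to respond differently.

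Between genotypes at the same treatment, no member passed the threshold by edgeR. In PBS lungs 0% of all tested genes were called, and 2 members (3.51%, against 2.17% of all tested genes) had an unadjusted p below 0.05 by edgeR, 2 by DESeq2 and 1 by limma-voom. Smallest were the p values of Epha7 (0.36 ± 0.14 SE, adjusted p = 0.999), Sema6b (-0.56 ± 0.25 SE, adjusted p = 0.999) and Sema3c (0.26 ± 0.12 SE, adjusted p = 0.999), and their groups overlapped. In LPS lungs 2.05% of all tested genes were called, and 13 members (22.8%, against 14.3% of all tested genes) had an unadjusted p below 0.05. The members with the smallest p were Ephb6 at -0.61 ± 0.15 (SE, adjusted p = 0.063), Sema4c at 0.81 ± 0.20 (SE, adjusted p = 0.0672) and Sema6d at 0.38 ± 0.11 (SE, adjusted p = 0.0928). DESeq2 called Ephb6 (adjusted p = 0.00737) and Sema4c (adjusted p = 0.00768), and limma-voom called neither. These comparisons share their LPS libraries with the responses given above.

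The wider pathway was followed with 69 further genes of guidance signalling, of which 67 were tested. In WT lungs 8 of them (11.9%) rose and 4 (5.97%) fell, and in Adm+/- lungs 8 (11.9%) rose and 7 (10.4%) fell, shares near those of all tested genes. The neuropilin co-receptors were not called, Nrp1 at -0.19 and -0.19 and Nrp2 at -0.27 and -0.25 on the log2 scale in WT and Adm+/- lungs, nor was Itgb1, the integrin partner of Sema7A, at -0.09 and 0.08. Among ligands, the secreted netrin inhibitor Draxin rose in both genotypes (2.09 and 1.77), Rgma, a ligand of neogenin, rose in WT lungs (0.67, Adm+/- 0.11), and the lipid-anchored Ntng2 rose in Adm+/- lungs (0.63, WT 0.32). Draxin had few reads, averaging 0.326 and 1.42 CPM in WT PBS and LPS and 0.716 and 2.39 CPM in Adm+/- PBS and LPS lungs. Cd72, an immune receptor of Sema4D, rose in both (1.80 and 1.51), and L1cam, an adhesion molecule in semaphorin 3A receptors, rose in WT lungs (0.78, Adm+/- 0.14).

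Inside the cell, genes acting on plexins and small GTPases also moved in both directions. Rnd1, a GTPase that binds plexins, rose in WT (1.64, adjusted p = 0.00645) and Adm+/- lungs (2.61, adjusted p = 0.00029). Rap1gap, which switches off the GTPase Rap1, rose at 0.79 and 1.01, and the tyrosine kinase Fes at 0.52 and 0.62. Chn1, a Rac regulator downstream of EphA4, fell at -0.81 and -0.85, the adaptor Nck2 at -0.73 and -0.65, and the actin-binding Ablim3 at -0.83 and -1.45. Dpysl2, a collapsin response mediator, fell in WT lungs (-0.66, adjusted p = 0.00368) and was just under the fold limit in Adm+/- lungs (-0.50, adjusted p = 0.009), where 4 fits that left out a library called it. Called in Adm+/- and not in WT lungs were the mediators Crmp1 (0.76, WT 0.28) and Dpysl4 (-1.10, WT -0.25), the kinase Rock2 (0.69, WT 0.47), the GTPase Rhod (-0.61, WT -0.48) and the exchange factors Ngef (-0.76, WT -0.09) and Vav3 (-0.88, WT -0.06). Between genotypes in LPS lungs, 3 of the 67 genes (4.48%) were called lower and 0 higher in Adm+/- mice, against 1.72% and 0.327% of all tested genes, and among the 3 were Vav3 (-0.78) and Rgma (-0.78). Vav3 averaged 22.9 CPM in Adm+/- LPS and 39.4 to 42.1 CPM in the other groups. Rgma averaged 33.9 CPM in WT LPS and 18.4 to 21.3 CPM elsewhere, and L1cam 13.3 CPM against 7.04 to 7.75 CPM. The WT LPS libraries also held the skeletal muscle and squamous markers, whose part in these values was not tested. The WT calls of Draxin, L1cam and Fes were lost without WT LPS replicate 9, that of Draxin also without WT PBS replicate 4, that of L1cam without WT PBS replicate 4 or 5 or WT LPS replicate 11, and that of Fes without WT PBS replicate 3. Those of Ntng2, Draxin, Crmp1, Dpysl4, Rhod and Ngef in Adm+/- lungs were lost in 1 or more fits without a library.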

How the data were processed

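Counts per gene were made by the authors, who per the labels used Trim Galore, HISAT2 (mm10) and featureCounts, with Gencode as the annotation. The deposited table holds raw counts for 52550 genes in 12 libraries from a directional kit with ribosomal RNA depletion. The Gencode release and the strand option are not given in the sources used here. Exon lengths and overlaps were taken from Gencode M21, which held 52403 of the genes and all 59 members.

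Protein-coding genes passing filterByExpr (15885, 72.4%) were fitted once with edgeR 4.0.16 (R 4.3.3, TMM, quasi-likelihood F-test, 1 coefficient per group, 8 residual degrees of freedom, two-sided) for 5 contrasts, with Benjamini-Hochberg adjustment over all tested genes. SE is the absolute log2 fold change over the square root of F. DESeq2 1.42.0, limma-voom (limma 3.58.1), RLE size factors, other filters, glmTreat, all annotated genes, 6-library fits and fits without each library were alternatives. The fit was also run on simulated counts to check the code, and the outcome is not given here. All 12 pairs of libraries of a group differed beyond sampling noise. Reads carry no molecular identifiers, so counting precision covers counting error only.

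Members named are every called one, the highest of each family per kb and the 3 smallest p values of the other contrasts. Values per library are given for the 6 called members of largest fold change in each direction and genotype (mean not under 1 CPM), and every called gene of the wider pathway is named except 1, which is not reported here. The members, the lists and the tests were chosen with earlier results of these data known.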

Additional observations from a re-analysis of the deposited data

How the results depend on the processing

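No paired analysis was possible because the groups share no replicate numbers. Members called for LPS in WT lungs numbered 25 and were 14 when the 6 libraries of the comparison were fitted alone, 9 when glmTreat tested against the fold limit, and 15 to 28 as each library was left out, lowest without WT LPS replicate 9. Of all tested genes, 5.16% were called higher and 2.23% lower in WT with 6 libraries, and 5.07% and 1.23% by glmTreat. Without WT LPS replicate 9 those shares were 6.25% and 2.75%, against 10.5% and 7.09% as first called. In Adm+/- lungs 28 were called, 16 by glmTreat and 26 to 30 with a library left out. Fitted alone, the 6 libraries of that comparison gave 9 higher and 19 lower members, where 14.7% and 14.5% of all tested genes were called. By glmTreat those shares of all tested genes were 6.9% and 3.77%, against 12.8% and 12.2% as first called. Between genotypes in LPS, 0 became 2 by DESeq2, 1 with 6 libraries, 2 without WT PBS replicate 5 and Adm+/- PBS replicate 6, and 0 to 2 with a library left out (1 without WT PBS replicate 3, 2 without WT PBS replicate 5). Pathway genes called in WT lungs went from 12 to 3 by glmTreat and 7 with 6 libraries, and in Adm+/- lungs from 15 to 5 by glmTreat. Without both PBS libraries that stood apart, 3 uncalled fold changes turned positive, Sema4c (0.092) and Ngef (0.163) in WT and Plxnd1 (0.059) in Adm+/- lungs. As each library was left out, WT values of Sema4c ranged from -0.333 to 0.092, Ngef from -0.324 to 0.163, Dpysl4 from -0.644 to 0.079 and Vav3 from -0.29 to 0.056, and Plxnd1 in Adm+/- lungs from -0.172 to 0.05. glmTreat asks for more than the fold limit. Fits of 6 libraries have fewer degrees of freedom in both genotypes, and the members called were fewer in WT and not in Adm+/- lungs. The cause of the changes outside glmTreat was not tested. With a library left out, the Epha8 fold change ranged from -4.15 to -2.77 in WT and from -3.40 to -3.12 in Adm+/- lungs, and its call was kept in each of these fits. Whether few reads or spread between mice set these ranges was not tested.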

Other observations

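Transcripts annotated on the other strand of Plxna4 were read in a fit of all annotated genes. Plxna4os2, the highest of them, averaged 8.04 CPM in WT PBS, 4.61 CPM in WT LPS, 9.46 CPM in Adm+/- PBS and 3.75 CPM in Adm+/- LPS lungs, with log2 fold changes of -0.81 (edgeR adjusted p = 0.0564) in WT and -1.34 (adjusted p = 0.00322) in Adm+/- lungs. Plxna4os1 was at -0.17 (adjusted p = 0.715) and -1.13 (adjusted p = 0.0128), and Plxna4os3, under 1 CPM on average in each group, at -1.69 (adjusted p = 0.0334) and -1.14 (adjusted p = 0.0731). Whether these reads belong to the antisense transcripts or to Plxna4 itself depends on the strand option of the counting, which is not given in the sources used here.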
